A study of Mus musculus with 5 samples.

Results

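The genes described here are 38 members of the unfolded protein response and of the ATF4 stress response, chosen by name from a list and found on the array through the gene symbol of each probe. All 38 were on the array, with 66 probes, among 19088 genes and 44290 array features in all. A value on all 5 arrays, needed for testing, was present for 37 members and for 11191 genes. The exception was Derl3. The RNA came from N18 cells, a mouse neuroblastoma line, infected with an adenovirus that carries the Dyrk1a coding sequence (pAd-Dyrk1a) or with the control adenovirus pAd-Track-CMV, so cells on both sides of the comparison carried virus. DYRK1A is a protein kinase encoded on the human chromosome that is trisomic in Down syndrome. Each of the 5 two-colour arrays compared a Dyrk1a sample with a control vector sample. Dyrk1a RNA was labelled with Cy5 in replicates 1, 2 and 3 and with Cy3 in replicates 4 and 5. The labels give neither the virus dose nor the time after infection, and they do not say whether the replicates were separate cultures. The design text calls them independent, and p-values measure the spread between these arrays. Each value below is a log ratio read as log2, Dyrk1a sample over control vector sample, centred on its array's median. The log base was inferred from the values and is not certain, and every fold rests on it.

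Proteins that enter the secretory pathway fold in the endoplasmic reticulum (ER). When unfolded protein accumulates there, the sensors IRE1, PERK and ATF6 signal to the nucleus, raise the ER chaperones and the machinery that exports misfolded proteins for degradation, and slow translation through phosphorylation of eIF2alpha. That phosphorylation also raises translation of the transcription factor ATF4, whose targets include genes of amino acid supply and of the return of translation, and, under lasting stress, the death-associated factor CHOP. Neuroblasts secrete catecholamines, granins and peptides and depend on this machinery.

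Across the arrays, the virus-delivered gene had the largest fitted ratio of the 11191 genes, and was the single gene that passed. Dyrk1a was at a fitted log2 ratio of 2.46 (SE 0.12), a 5.52-fold ratio with an adjusted p of 0.0139 in limma. This value is from the 1 of 3 Dyrk1a probes measured on all 5 arrays, and the other two were near 0 where measured (means of 0.063 in 2 arrays and -0.058 in 4). Values were present for 63.8% to 70.0% of features. Replicate 2 stood apart: the middle range of its gene values (25th to 75th percentile) was 0.29 wide, where the other arrays had widths from 0.145 to 0.167. It correlated over genes at 0.022 with replicate 3 and at 0.20 with replicate 1, where replicates 1 and 3 correlated at 0.59. Between arrays of opposite dye orientation the correlations over the 11191 genes ran from -0.11 to 0.095, and over the 37 members from -0.69 to -0.085. These correlations describe arrays that share a dye orientation or oppose it. Of 16 neuroblast markers on the list (Chga, Gap43 and others) 10 were measured on all 5 arrays, against 1 of 7 glial, 3 of 7 fibroblast and smooth muscle and 1 of 7 immune markers. Only ratios were used, so levels of these markers could not be compared. The neuroblast markers had a median fitted log2 ratio of 0.14, with 9 of 10 above 0 and 4 of 10 higher at an unadjusted p under 0.05 (Gap43 at 0.22, Tubb3 at 0.25, Chgb at 0.21 and Chga at 0.16), though 0 passed. Their part in the members' values was not tested. In RNA of whole cultures a different share of responding cells and a different amount of RNA per cell cannot be told apart.

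The promoters show which members carry the known recognition elements of the pathways. Promoter windows of 300 bases (250 before and 50 after the gene start, RefSeq, GRCm38.p6) were present for 34 of the 38 members. They were searched on both strands for the ER stress response element (ERSE, CCAAT and CCACG with any 9 bases between), ERSE-II (ATTGG and CCACG with any 1 base between), the element UPRE (TGACGTGG) and the C/EBP-ATF element CARE (TGATGNAA). ERSE was found in 9 of the 34, 26.5%, against 0.119% of all 32851 windows, and 7 of these 9 were chaperones or folding enzymes (Calr, Canx, Creld2, Dnajc3, Hsp90b1, Hspa5 and Pdia6), beside Derl3 and Syvn1. ERSE-II was found in 2, Dnajb11 and Herpud1, against 0.0365% of all windows. UPRE was found in 0 members and in 0.676% of all windows. CARE was found in 5 members, 14.7%, against 3.97% of all windows, and 4 of them were ATF4 targets (Asns, Atf3, Chac1 and Trib3), beside Herpud1. ERSE-II and CARE do not overlap in Herpud1. The members were chosen as genes of these pathways and the elements are those of the same pathways, so these shares are a description and test nothing. Members were counted as genes, while all windows were counted singly. The windows of 3 members with an unadjusted p under 0.05 (Hspa5, Selenos and Ddit3), of Herpud1, which holds an element of both kinds, and of Asns are printed 5′ to 3′ on the gene's strand, with matches in capitals. They lie at chr2:34771840-34772139 (Hspa5, plus strand), chr8:94386179-94386478 (Herpud1, plus), chr6:7693160-7693459 (Asns, minus), chr7:66079399-66079698 (Selenos, plus) and chr10:127290543-127290842 (Ddit3, plus).
Hspa5: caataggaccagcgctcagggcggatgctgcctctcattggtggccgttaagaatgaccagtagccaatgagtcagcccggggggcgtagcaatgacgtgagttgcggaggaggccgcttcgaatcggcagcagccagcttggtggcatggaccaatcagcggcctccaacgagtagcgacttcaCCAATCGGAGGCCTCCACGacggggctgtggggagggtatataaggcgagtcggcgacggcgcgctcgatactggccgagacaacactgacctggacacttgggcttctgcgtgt
Herpud1: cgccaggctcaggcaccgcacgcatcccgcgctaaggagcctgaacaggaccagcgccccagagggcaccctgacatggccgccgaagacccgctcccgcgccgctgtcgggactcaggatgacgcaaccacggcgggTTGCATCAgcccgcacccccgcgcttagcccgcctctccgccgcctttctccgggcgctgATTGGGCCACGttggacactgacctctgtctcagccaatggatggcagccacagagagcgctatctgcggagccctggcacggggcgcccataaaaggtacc
Asns: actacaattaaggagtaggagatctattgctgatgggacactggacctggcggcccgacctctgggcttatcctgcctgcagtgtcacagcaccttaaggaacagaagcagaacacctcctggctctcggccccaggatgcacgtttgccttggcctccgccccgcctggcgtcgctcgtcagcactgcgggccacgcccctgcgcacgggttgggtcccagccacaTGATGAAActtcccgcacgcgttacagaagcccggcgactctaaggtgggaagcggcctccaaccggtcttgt
Selenos: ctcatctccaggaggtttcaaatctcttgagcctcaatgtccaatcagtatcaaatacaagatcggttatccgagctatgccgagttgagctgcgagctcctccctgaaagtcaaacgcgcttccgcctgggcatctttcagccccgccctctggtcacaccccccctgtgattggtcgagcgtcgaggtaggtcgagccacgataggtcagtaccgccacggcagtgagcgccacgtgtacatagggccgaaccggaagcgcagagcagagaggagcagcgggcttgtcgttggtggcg
Ddit3: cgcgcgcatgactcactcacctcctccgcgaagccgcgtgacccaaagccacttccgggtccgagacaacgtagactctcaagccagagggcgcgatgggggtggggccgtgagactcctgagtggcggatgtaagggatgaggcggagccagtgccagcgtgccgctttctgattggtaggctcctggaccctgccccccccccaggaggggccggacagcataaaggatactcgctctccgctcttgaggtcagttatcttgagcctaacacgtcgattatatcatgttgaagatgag
The capitals mark ERSE in Hspa5, CARE and then ERSE-II in Herpud1, and CARE in Asns. The Selenos and Ddit3 windows hold 0 matches to the 4 motifs, which says only that these letters are not in these windows.

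No member passed the threshold in either direction (limma, adjusted p under 0.05 over 14307 features), where 0.00894% of genes did. The count was also 0 with arrays scaled to the same spread (1.95% of all genes passed), with quantile normalization (2.12%) and without replicate 2 (3.36%). With array weights, Selenos and Ddit3 passed as higher, where 12% of all genes passed, 5.56% as higher. The fitted log2 ratios of the 37 members ran from -0.076 (Hsp90b1) to 0.22 (P4hb), with a median of 0.044 against 0.0080 over all genes tested. Of the 37, 24 were fitted above 0 (64.9%, against 54.9% of all genes) and 13 below. At an unadjusted p under 0.05 there were 4 higher members, 10.8% against 5.25% of all genes, and 0 lower, against 6.38%. They were Selenos, Hspa5, Ddit3 and Derl1, with adjusted p from 0.158 to 0.447. Above 0 in all 5 arrays were 9 members, 24.3% against 6.71% of all genes, and 0 were below 0 in all 5, against 6.32%. Some of the 9 are means of several probes, and no single Pdia6 or Edem1 probe was above 0 in all 5 arrays. Of the 61 member probes measured on all 5 arrays, 8 were above 0 in each and 1 was below. The share over all such probes was not computed. The plot of fitted changes shows each member with its interval. The highest upper end of a 95% interval was 0.53 (Ppp1r15a), a 1.44-fold ratio, and the lowest lower end was -0.29, for the same gene. Apart from those of Ppp1r15a, P4hb, Trib3 and Sdf2l1, 0 intervals reached above 0.30.

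**Figure D1:**
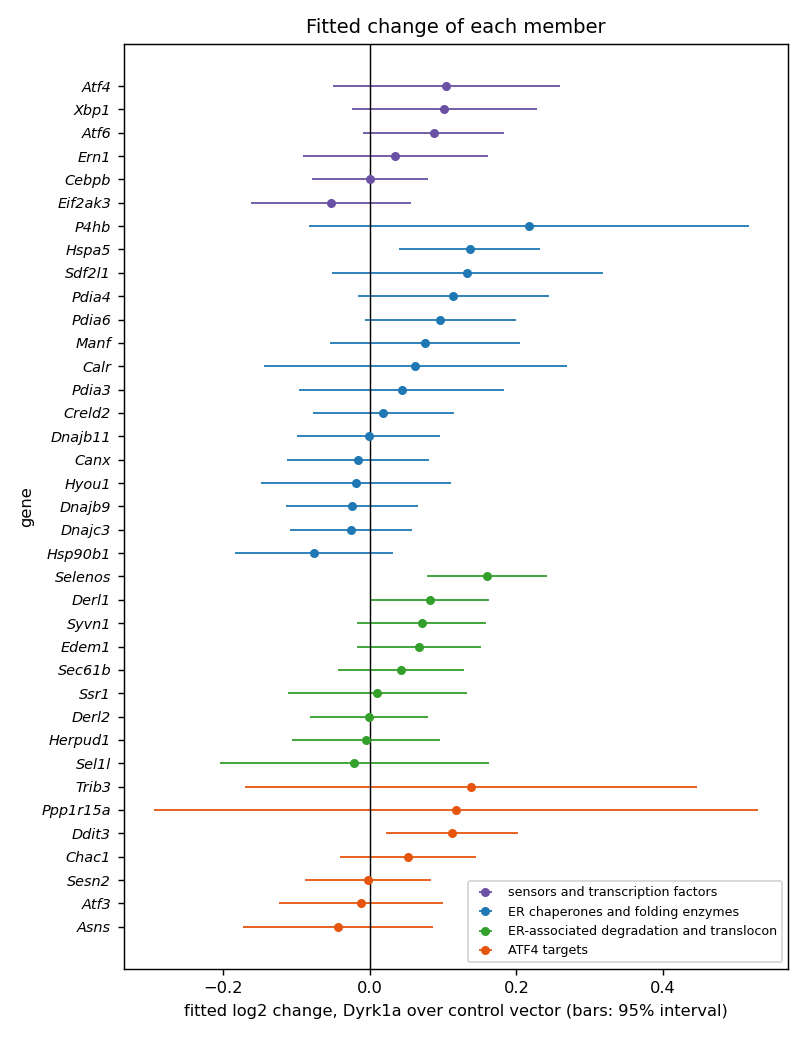
Fitted log2 change, Dyrk1a over control vector, of the 37 tested members (points) with 95% intervals from limma (bars), coloured by role and ordered by size within each role. The intervals of Selenos, Hspa5, Ddit3 and Derl1 lie above 0, and those of the other 33 members include 0.

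By role, the median fitted log2 ratio was 0.044 over 15 chaperones and folding enzymes, 0.043 over 9 tested genes of ER-associated degradation and the translocon, 0.052 over 7 ATF4 targets and 0.061 over 6 sensors and transcription factors. Fitted above 0 were 9 of 15, 6 of 9, 4 of 7 and 5 of 6. With 1 array left out, the ATF4 target median ranged from 0.0029 (without replicate 2) to 0.086 (without replicate 5), and it was 0.0032 with array weights. The sensor median ranged from 0.021 (without replicate 4) to 0.087 (without replicate 5), the chaperone median from 0.027 to 0.055 and the degradation median from 0.029 to 0.054. Without the dye term the chaperone median was -0.0098, on the other side of 0. By array, the chaperone median was -0.073, 0.018 and -0.0047 in replicates 1 to 3 (Dyrk1a in Cy5) and 0.10 and 0.14 in replicates 4 and 5 (Dyrk1a in Cy3), so it lay higher in both arrays of the second orientation than in the 3 of the first. The degradation median was 0.051, 0.0015, 0.044, 0.076 and 0.089 in replicates 1 to 5, above 0 each time. The ATF4 target median was -0.0090, 0.024, 0.015, 0.13 and 0.098. The medians of sensors and transcription factors were 0.12, 0.073, 0.035 and 0.044 in replicates 1 to 4 and -0.013 in replicate 5. Single genes did not all follow their group's median. As the grid of values shows, the chaperone Dnajc3 was higher in the Cy5 orientation (Cy5 mean 0.052, Cy3 mean -0.10). The means of Canx, Sdf2l1 and P4hb were also higher there, but those of Sdf2l1 and P4hb rested largely on replicate 2. Without replicate 2 the orientation difference, Cy5 minus Cy3, was 0.055 for Sdf2l1 and -0.086 for P4hb. Single Canx probes had differences from -0.30 to 0.25.

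**Figure D2:**
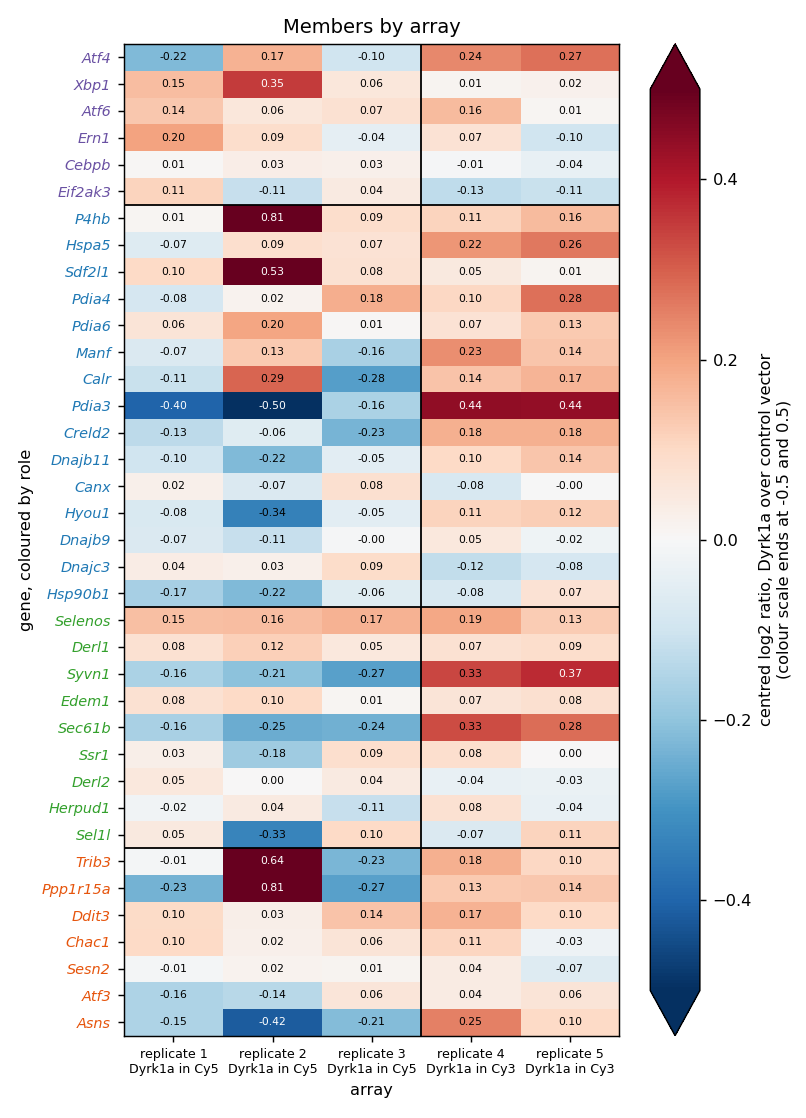
Centred log2 ratio, Dyrk1a over control vector, of the 37 tested members (rows, grouped by role) in the 5 arrays (columns, split by the dye of the Dyrk1a RNA); each cell prints its value and the colour ends at -0.5 and 0.5. Selenos is between 0.13 and 0.19 in every array, Pdia3, Syvn1 and Sec61b change sign with the dye orientation, and P4hb, Sdf2l1, Trib3 and Ppp1r15a are highest in replicate 2.

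Among ER chaperones, Hspa5, which encodes BiP, the Hsp70 of the ER lumen and the classic marker of the unfolded protein response, had log2 ratios of -0.065, 0.085, 0.071, 0.22 and 0.26 in replicates 1 to 5. It was above 0 in 4 of 5 arrays, and both arrays with Dyrk1a in Cy3 were above the other 3. The mean was 0.11 ± 0.13 (SD, n = 5). The fitted log2 ratio was 0.14 (SE 0.039, 95% interval 0.040 to 0.23), a 1.10-fold ratio, with an unadjusted p of 0.0137 and an adjusted p of 0.281 in limma. Its mean was 0.030 in the Cy5 orientation and 0.24 in the Cy3 orientation, and the dye term did not pass (adjusted p = 0.255). The ER Hsp90 gene Hsp90b1 (GRP94), whose promoter holds 2 ERSE matches, was at -0.17, -0.22, -0.059, -0.081 and 0.074, below 0 in 4 of 5 arrays, with a fitted value of -0.076 (adjusted p = 0.606). BiP and GRP94 are usually raised together, and here their fitted values had opposite signs. The difference between them was not tested.

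Among other chaperones of the BiP cycle, Hyou1 (GRP170), a nucleotide exchange factor of BiP, was at -0.019. The J-domain cochaperones Dnajb9, Dnajb11 and Dnajc3 were at -0.024, -0.0016 and -0.025, with 95% intervals that ended between 0.057 and 0.096. Sdf2l1, which works with ER J proteins, had values of 0.098, 0.53, 0.076, 0.051 and 0.013. It was above 0 in all 5 arrays, with replicate 2 far above the other 4. Its fitted value was 0.13 (adjusted p = 0.597), and 0.059 without replicate 2. Calreticulin (Calr) and calnexin (Canx), the lectin chaperones of glycoproteins, were at 0.062 and -0.015, each with probes on both sides of 0. Without replicate 2 both changed sign, to -0.019 and 0.0055. Hyou1 and Dnajb11 also changed sign without it, to 0.027 and 0.022.

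The protein disulphide isomerases form and rearrange disulphide bonds. P4hb, the founding member of the family, was at 0.0080, 0.81, 0.086, 0.11 and 0.16, above 0 in all 5 arrays. Its fitted value of 0.22 (SE 0.12, adjusted p = 0.594) compared with 0.090 without replicate 2 (adjusted p = 0.192). Pdia4 was at -0.084, 0.018, 0.18, 0.10 and 0.28, fitted at 0.11 (SE 0.053, adjusted p = 0.519). Pdia6 was at 0.063, 0.20, 0.0063, 0.074 and 0.13, above 0 in all 5 arrays and fitted at 0.096 (SE 0.042, adjusted p = 0.489). Pdia3 (ERp57), which acts with calreticulin and calnexin, was at -0.40, -0.50 and -0.16 in the 3 arrays of the Cy5 orientation and at 0.44 in both of the Cy3 orientation. The orientations did not overlap and had opposite signs. Its fitted Dyrk1a effect was 0.044 (adjusted p = 0.842), while the difference between orientations, Cy5 minus Cy3, was -0.80 (adjusted p = 0.0284 for the dye term in limma). The secreted ER stress proteins Creld2 and Manf were at 0.018 and 0.075, and both were below 0 in replicates 1 and 3 and above 0 in replicates 4 and 5. Without replicate 2, Creld2 changed sign, to -0.0014, and Manf was at 0.034.

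In ER-associated degradation, Selenos had the smallest p of the 37 tested members. It encodes selenoprotein S, a membrane protein that links the derlins to the p97 ATPase. Its log2 ratios were 0.15, 0.16, 0.17, 0.19 and 0.13, all above 0, and the dye orientations overlapped, with means of 0.16 in each. The mean was 0.16 ± 0.025 (SD, n = 5). The fitted log2 ratio was 0.16 (SE 0.033, 95% interval 0.079 to 0.24), a 1.12-fold ratio, with an unadjusted p of 0.00307 and an adjusted p of 0.158 in limma. With 1 array left out it ranged from 0.14 to 0.18, with adjusted p from 0.0505 (without replicate 2) to 0.999 (without replicate 4). With array weights it was 0.16 and passed, with an adjusted p of 0.00804, in the fit that called 12% of all genes.

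Derl1, a derlin of the channel through which misfolded proteins leave the ER, had log2 ratios of 0.076, 0.12, 0.052, 0.074 and 0.089 as the mean of 4 probes. All were above 0, with a mean of 0.082 ± 0.024 (SD, n = 5). The fitted log2 ratio was 0.082 (SE 0.033, 95% interval 0.00032 to 0.16), with an unadjusted p of 0.0494 and an adjusted p of 0.447. Its probes did not move alike. A pair were above 0 in all 5 arrays, fitted at 0.14 and 0.13, and the others were at 0.059 and -0.0027. Its paralog Derl2 was at -0.0015. Derl3 was measured in 2 arrays only, at 0.047 in replicate 3 and -0.088 in replicate 5.

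Edem1, a lectin that delivers misfolded glycoproteins for degradation, had values of 0.076, 0.10, 0.011, 0.065 and 0.079. All were above 0 and the fitted value was 0.067 (SE 0.034, adjusted p = 0.550). Syvn1, the ubiquitin ligase HRD1, was at -0.16, -0.21 and -0.27 in the Cy5 orientation and 0.33 and 0.37 in the Cy3 one. These orientations did not overlap, the dye term passed (difference -0.56, adjusted p = 0.0192) and the Dyrk1a effect was 0.071 (adjusted p = 0.548). Sel1l, the partner that stabilizes HRD1, was at -0.021 (95% interval -0.20 to 0.16), and at 0.047 without replicate 2, the array with its lowest value (-0.33). Herpud1, an ER membrane protein that joins HRD1 and is among the most inducible genes of the response, was at -0.018, 0.043, -0.11, 0.075 and -0.036. It was on both sides of 0 in both orientations, and its fitted value was -0.0050 (95% interval -0.11 to 0.096), whose upper end is a 1.07-fold ratio. Of the translocon, through which new proteins enter the ER, Sec61b was at -0.16, -0.25 and -0.24 in the Cy5 orientation and 0.33 and 0.28 in the Cy3 one, with a dye difference of -0.52 (adjusted p = 0.0241) and a Dyrk1a effect of 0.043 (adjusted p = 0.727). Ssr1, of the translocon-associated protein complex, was at 0.011.

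Of the ATF4 targets, Ddit3, which encodes the death-associated transcription factor CHOP, had log2 ratios of 0.096, 0.030, 0.14, 0.17 and 0.098. All were above 0, the orientations overlapped, and the mean was 0.11 ± 0.054 (SD, n = 5). The fitted log2 ratio was 0.11 (SE 0.036, 95% interval 0.022 to 0.20), a 1.08-fold ratio, with an unadjusted p of 0.0224 and an adjusted p of 0.335. It passed with array weights at 0.12 (adjusted p = 0.0243). The other ATF4 targets were on both sides of 0 across the arrays. Trib3, a pseudokinase that restrains this response, was at -0.0090, 0.64, -0.23, 0.18 and 0.10, with replicate 2 far above the others. Its fitted value was 0.14 (SE 0.13, adjusted p = 0.759), and 0.011 without replicate 2. Ppp1r15a (GADD34), which guides the phosphatase that removes the eIF2alpha phosphate, was at -0.23, 0.81, -0.27, 0.13 and 0.14. Its fitted value of 0.12 (SE 0.17) became -0.060 without replicate 2. Chac1, which degrades glutathione, was at 0.10, 0.024, 0.064, 0.11 and -0.026, fitted at 0.052 (SE 0.038, adjusted p = 0.694).

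Asns, the asparagine synthetase and a standard readout of amino acid shortage, was at -0.15, -0.42 and -0.21 in the Cy5 orientation and 0.25 and 0.10 in the Cy3 one. The orientations did not overlap, the dye term did not pass (difference -0.44, adjusted p = 0.112) and the fitted value was -0.043. Atf3, a stress-induced repressor, was at -0.012, and Sesn2, a sestrin that restrains mTORC1, at -0.0026 (95% interval -0.089 to 0.084).

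Of the sensors, Ern1 (IRE1) was at 0.035 and Eif2ak3 (PERK) at -0.053. Atf6 was at 0.14, 0.056, 0.074, 0.16 and 0.011, above 0 in all 5 arrays, with a fitted value of 0.087 (SE 0.039, adjusted p = 0.503). Xbp1, whose mRNA IRE1 splices, was at 0.15, 0.35, 0.055, 0.013 and 0.020, above 0 each time and fitted at 0.10 (SE 0.051, adjusted p = 0.548), or 0.061 without replicate 2. The array values do not tell spliced from unspliced Xbp1. Atf4, which is regulated mainly through translation, was at -0.22, 0.17 and -0.10 in the Cy5 orientation and 0.24 and 0.27 in the Cy3 one, fitted at 0.10 (SE 0.063, adjusted p = 0.628). Both Cy3 values were above the 3 Cy5 values. Without replicate 2 it was 0.049. Cebpb, a bZIP factor that forms dimers with CHOP, was at 0.00017, where its probes were at 0.073 and -0.070.

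Several members differed more between the dye orientations than from 0. Each orientation was on its own replicates, so an effect of the dye and a difference between these sets of replicates cannot be told apart. The means of the orientations lay on opposite sides of 0 for 22 of the 37, 59.5% against 53.2% of all genes, and 10 members (27.0%, against 16.7%) had the sign of the orientation in each of the 5 arrays. The dye term passed for 3 members, Pdia3, Sec61b and Syvn1, where 1.33% of all genes passed. The median size of the orientation difference was 0.19 over the chaperones, 0.064 over the degradation genes and 0.11 over the sensors. It was 0.031 over the ATF4 targets and 0.10 over all genes tested. Without replicate 2, the ATF4 targets Ppp1r15a and Trib3 went from -0.031 and -0.0066 to -0.39 and -0.26. Chac1 went from 0.022 to 0.041, and the differences of the other ATF4 targets became smaller in size. An orientation difference also had a larger standard error than the Dyrk1a effect (0.11 against 0.057 for Pdia3). Selenos, Derl1, Edem1, Pdia6 and Atf6 had orientation differences of 0.014 or less in size and were above 0 in all 5 arrays. For Pdia6 and Edem1 this is a mean of probes with opposite orientation differences, from -0.32 to 0.23 and from -0.15 to 0.11. Derl1 and Atf6 are also means of probes with differences on both sides of 0, from -0.057 to 0.075 and from -0.036 to 0.036. Selenos has 1 probe. The scatter of the orientation means shows all 37 members.

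**Figure D3:**
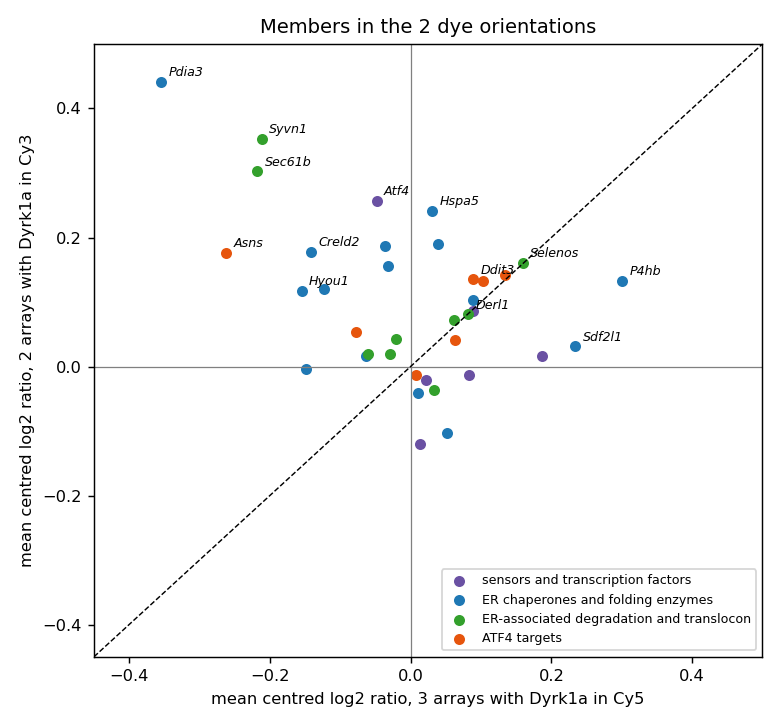
Mean centred log2 ratio of each of the 37 tested members in the 3 arrays with Dyrk1a in Cy5 (horizontal axis) and in the 2 arrays with Dyrk1a in Cy3 (vertical axis), coloured by role; the dashed line marks equal values. Selenos and Derl1 lie on the line above 0, while Pdia3 lies at -0.35 and 0.44, Syvn1 at -0.21 and 0.35 and Sec61b at -0.22 and 0.30.

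Several probes were available for some members. Of the 66 probes, 61 were measured on all 5 arrays, and fitted singly 39 of these were above 0 and 22 below, 0 passed (0.00588% of all such probes did), and 9 had an unadjusted p under 0.05 (10.4% of all such probes did). Of 14 members with more than 1 such probe, 10 had fitted values on both sides of 0. The Calr probes were at 0.13 (SE 0.042) and -0.0045 (SE 0.13), and the Hsp90b1 probes at -0.13 (SE 0.045) and -0.019 (SE 0.065). The lower Hsp90b1 probe was the single member probe below 0 in all 5 arrays. The 4 Pdia6 probes were all fitted above 0, from 0.020 to 0.16, but one was higher in the Cy5 arrays (0.28, 0.18 and 0.22, against -0.013 and 0.0040) and another in the Cy3 arrays (-0.025, -0.085 and -0.079, against 0.24 and 0.26). The orientation differences of these probes of 1 gene ran in opposite directions. A further 5 probes lacked a value in some arrays, of Derl3, Eif2ak3, Hyou1, Sel1l and Syvn1, with values between -0.091 and 0.15 where measured. The plot of single probes gives their spread.

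**Figure D4:**
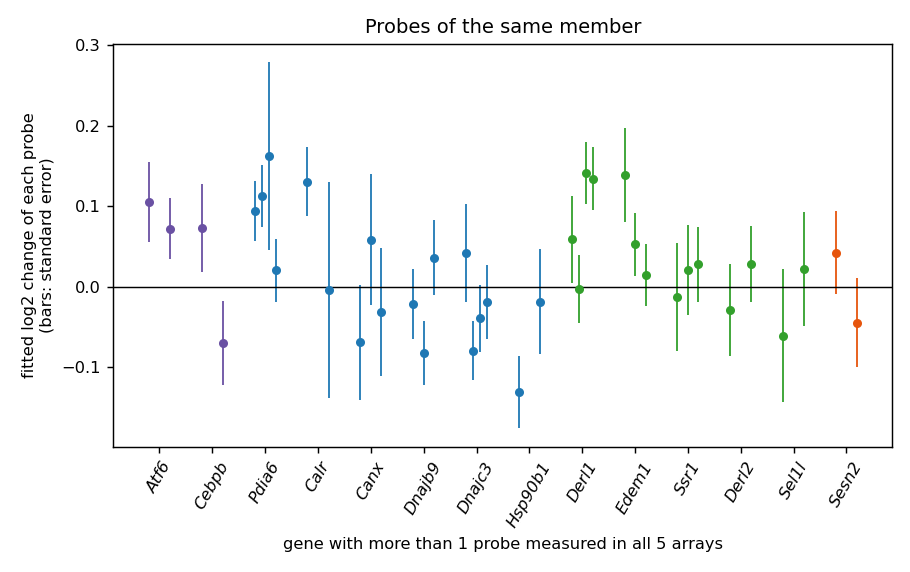
Fitted log2 change (points) with standard error (bars) of each probe of the 14 members with more than 1 probe measured in all 5 arrays, coloured by role. The Atf6, Pdia6 and Edem1 probes all lie above 0, a pair of Derl1 probes lie at 0.14 and 0.13, and the Cebpb probes lie at 0.073 and -0.070.

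Set beside the promoters, the 10 tested members with an ERSE or ERSE-II match had a median fitted log2 ratio of 0.0084, with 5 above 0. The 5 with a CARE match had a median of -0.0050, with 2 above 0. The 19 with none of the 4 motifs had a median of 0.044, with 14 above 0, Selenos and Ddit3 among them. At an unadjusted p under 0.05 in limma were 1 of the 10 with an ERSE-type match (Hspa5) and 0 of the 5 with CARE. Of the 19 with none of the motifs 2 were, where 11.6% of all genes had such a p. These counts are descriptions of short windows.

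Further lists held other genes of these pathways and genes of the cytosolic and mitochondrial stress responses, and 0 of the 123 tested passed. Genes are named by the smallest p in each direction of each list. Other ER folding and quality control genes had a median of 0.049 over 24 genes, 17 above 0. Prkcsh, the beta subunit of glucosidase II, was at 0.13 and Fkbp11, an ER prolyl isomerase, at 0.10, while Sil1, a nucleotide exchange factor of BiP, was at -0.096 and the peptide-trimming Erap1 at -0.053. For other genes of degradation, translocon and sensing, the fitted values had a median of 0.041 over 31 genes, 22 above 0. Creb3, an ER-bound transcription factor gene, was at 0.21, 0.29, 0.18, 0.14 and 0.16, above 0 in all 5 arrays and fitted at 0.19 (SE 0.035, adjusted p = 0.137). It passed without replicate 2 (0.17, adjusted p = 0.0392), in the fit where 3.36% of all genes passed. Serp1, which stabilizes proteins at the translocon, was at 0.11 (adjusted p = 0.281), and Ufd1 and Erlec1 were at -0.049 and -0.036. The 28 other ATF4 and integrated stress response genes lay at a median of 0.039, 19 above 0, with Gpt2, an alanine transaminase, at 0.091 and Atf5 at 0.10, and with Ddit4 at -0.14 and Psat1 at -0.040.

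The aminoacyl-tRNA synthetases, many of them ATF4 targets, were fitted above 0 in 16 of 17, with a median of 0.050. By array, however, their median was 0.32 in replicate 2 and -0.043, -0.11, 0.044 and 0.062 in replicates 1, 3, 4 and 5, and the fitted median was -0.0039 without replicate 2. Rars was at 0.13, Nars at 0.070 and Lars at -0.076. Cytosolic heat shock genes, which another stress pathway controls, lay at a median of 0.0053 (11 genes), with Hspb8 at 0.16, Hspa8 at 0.16, Hsp90aa1 at -0.10 and Hspa4l at -0.046. Mitochondrial chaperones and proteases lay at a median of 0.029 (12 genes), with Afg3l2 at 0.15, Hspd1 at 0.063, Clpx at -0.053 and Clpp at -0.039. No list is shown to differ from another by these counts.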

How the data were processed

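The values used were the authors' deposited log ratios, read as log2, 44290 features in 5 columns, with 0 columns of other samples. Per the labels, RNA extracted with Trizol was labelled with an Agilent amplification kit for two-colour whole mouse genome arrays. Scanning, background correction, normalization, log base and the reason for blank values are not stated by any source used here. The log base was inferred from unnamed features that repeat like control spots. All 145 such features beyond 0.9 in size in at least 4 arrays changed sign with the dye orientation, up to a median size of 3.59. In base 10 that would be an extreme ratio. Spots like these may hold extreme ratios, so base 10 was not excluded. A natural log could not be told apart from log2 on these data either. It would leave values, p-values and signs as they are but raise every printed fold. Dyrk1a would then be 11.8-fold in place of 5.52-fold and Selenos 1.17-fold in place of 1.12-fold. Base 10 would raise each fold further. Of 3 Dyrk1a probes, 1 was measured in all 5 columns, and it was above 0 in each. The other two were near 0, at a mean of 0.063 in 2 arrays and -0.058 in 4, so the direction rests on that single probe. On its basis, the swapped columns were read as turned before deposit and each column as Dyrk1a over control vector.

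Of the features, 32042 named 1 gene, 47 several and 12201 none (31906 of the named probes matched an Entrez identifier of GRCm38.p6). A gene's value was the mean of its probes measured on all 5 arrays, and 3116 other features were tested beside the genes. Each array was centred on its median. The tests were two-sided and used lmFit and eBayes of limma 3.58.1 (R 4.3.3) with a Dyrk1a and a dye coefficient, 3 residual and 2.87 prior degrees of freedom, and Benjamini-Hochberg adjustment over 14307 features. The dye effect is the Cy5 minus the Cy3 orientation, and it includes any difference between the replicates of the orientations. The fit was tested on simulated data with planted effects larger than any member's fitted value. That test therefore does not show whether effects of the members' size would be found. The number of arrays limits the precision.

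Members, role groups and further lists were chosen with earlier results of these data known. Array values were printed for Hspa5, Ddit3, Atf4, Xbp1, Herpud1 and Trib3, for members with an unadjusted p under 0.05 and for the 3 smallest p of each role, and of each further list the 2 smallest p in each direction were named; array values of other members were chosen after they were seen. Alternatives were other scalings, array weights, no dye term, other probe rules, a robust variance with a trend and each replicate left out.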

Additional observations from a re-analysis of the deposited data

Results flagged for a closer look

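Among the 37 tested members and 11 list medians, 2 had an array far from the other 4, by a rule that flags about 1 in 20 groups by chance. Sdf2l1 was at 0.53 in replicate 2 and between 0.013 and 0.098 in the other arrays. P4hb was at 0.81 in replicate 2 and between 0.0080 and 0.16 in the others. Replicate 2 had the value of largest size for 17 of the 37 members, 45.9% against 46.7% of all genes.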

How the results depend on the processing

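Each array holds the ratio of 1 Dyrk1a and 1 control vector sample, so the fit to these ratios is already paired by array. Over all genes, 1 was called as reported, 376 without replicate 2, 218 with arrays scaled, 237 with quantile normalization and 1339 with array weights. In 12 of the 13 alternatives to the fit over all genes, 0 members were called. Apart from scaling, quantile normalization and the fit without replicate 2, those fits called at most 1 of all genes. A count of 0 members says little there. Array weights called 2 higher, Selenos and Ddit3, and 12 on the dye term (25.4% of all genes), and at an unadjusted p under 0.05 gave 11 higher members (15.4% of all genes) and 1 lower (13.7%). They gave replicate 1 a weight of 3.74 and replicate 2 one of 0.15, and called 1 gene of other folding, 2 of other degradation and 4 of other ATF4 genes, beside 12% of all genes; the median of that last list was 0.018. The count of higher members at an unadjusted p under 0.05, 4 in the fit as reported, was 7 with arrays scaled and 8 with quantile normalization. It was 2 with a robust variance with a trend. In these fits 7.74%, 8.07% and 1.61% of all genes were higher at that p. In the last, the trend was on the mean log ratio, and 5.98% of all genes were lower. With 1 array left out the count was 1 to 6 (1 without replicate 4 or 5, 2 without replicate 1). The share of all genes higher at that p also varied. It was 4.25%, 10.2%, 4.9%, 1.49% and 1.84% without replicates 1, 2, 3, 4 and 5. Scaling and quantile normalization each called 1 other degradation gene, Creb3. With 1 array left out, dye calls among members, 3 as reported, ranged from 0 (without replicate 1, 4 or 5) to 9 (without replicate 2, where 10.6% of all genes were called), calls in that list from 0 to 1 and the median of other ATF4 genes from 0.017 to 0.056. Without the dye term the degradation median was 0.0054, the chaperone median -0.0098 and the median of all members 0.014. Herpud1 changed sign without centring, at 0.00050, and ranged from -0.033 to 0.023 with 1 array left out, above 0 without replicate 3 or 5. A single Derl1 probe was at -0.0027. The cause of these shifts was not tested. With 4 arrays, 2 residual degrees of freedom remain. A filter on dim probes was not run, since intensities were not used here.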
